A study of Saccharomyces cerevisiae with 12 samples.

Results

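Transcript levels of 33 genes for proteasome subunits and their regulator were followed in yeast. The strains were a wild type and strains that lack one of 3 subunits of the SWI/SNF chromatin remodelling complex. The genes were chosen by name. They are the 14 genes of the 20S core (7 of the alpha ring and 7 of the beta ring), 18 genes of the 19S regulatory particle (6 base ATPases, 4 other base subunits and 8 lid subunits) and RPN4, which encodes the transcription factor of the family. All 33 were present among the 5935 genes measured, and all 33 passed the filter on low values.

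The proteasome degrades proteins that carry ubiquitin chains. Its core is a barrel of stacked rings, with alpha subunits that form the gate and beta subunits that line the chamber where peptide bonds are cut. The regulatory particle caps the barrel, binds the ubiquitin chain, removes it and unfolds the substrate. In yeast, Rpn4 binds a promoter element called PACE, the proteasome-associated control element, upstream of most of these genes. Rpn4 is itself a short-lived substrate of the proteasome, so that the particle and its regulator form a feedback loop.

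Poly(A) RNA of 12 cultures was sequenced with strand-marking libraries, 3 independent cultures for each of 4 strains, grown in log phase at 30 degrees Celsius to an OD600 of about 0.75 to 1.0. The strains are BY4741 cells of type mata with the alleles his3delta_1, leu2delta_0, met15delta_0 and ura3delta_0. In the deletion strains kanMX4 replaces SWP82 (an accessory subunit of SWI/SNF), SNF2 (its ATPase) or SNF5 (a core subunit). The wild type carries a 2FLAG-9 amino acids tag with the marker LEU2 on SNF2, whereas the 3 deletion strains carry this tag and marker on SNF6. Deletion and place of the tag therefore differ together between the wild type and each deletion strain, and their effects cannot be told apart here. Values are scaled CPM, that is CPM (read counts relative to the total of a library) divided by a scaling factor for each library, as deposited by the authors. They are shares of a library, so that fewer transcripts per cell and more RNA from other genes cannot be told apart.

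Depth was 9012746 to 12875057 reads per library, and a proteasome gene had between 967 and 6524 reads in a library. The deleted genes matched the labels. SNF5 was at 99.4 ± 2.46 scaled CPM (SD, n = 3) in the wild type and had between 0 and 2 reads in an snf5 deletion library. SNF2 had 6 to 8 reads in the snf2 deletion libraries and SWP82 had 0 reads in all swp82 deletion libraries. LEU2 went against the labels, since it had 0 reads in the 6 snf2 and swp82 deletion libraries, against 55.3 to 57.0 scaled CPM in wild-type libraries and 56.9 to 88.5 in snf5 deletion libraries. Between the snf2 or swp82 deletion and the wild type or snf5 deletion, LEU2 and the deletion therefore differ together. Their effects cannot be told apart in these comparisons.

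The promoters of most of these genes share a sequence. In the 500 bases upstream of the start codon (RefSeq assembly R64, the same sequence as sacCer3), PACE was searched as GGTGGCAAA on both strands. It was found in 27 of the 32 subunit genes, against 98 of all 5625 promoters searched (1.74%), which include the 27. Each of the 27 held 1 copy. The far end of the motif lay 84 to 183 bases upstream of the start codon (median 120), and it read in the direction of the gene in 19 and in the opposite direction in 8. The sequences shown belong to genes that rose in at least 1 of the comparisons that follow (PRE7, PRE2, PUP2, RPT1, RPN11, RPN5) and to PRE8 and PRE4, which had no call. Capitals mark the motif, and each run is given 5′ to 3′ in the direction of its gene.
PRE7 (chrII:141150-141178, plus strand): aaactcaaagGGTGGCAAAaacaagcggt
PRE2 (chrXVI:732184-732212, plus strand): acagcaaaagGGTGGCAAAacgaagaata
PUP2 (chrVII:999226-999254, minus strand): aaccaagaccGGTGGCAAAagagtaacct
RPT1 (chrXI:174048-174076, plus strand): attaccgaatTTTGCCACCcgaaaactaa
RPN11 (chrVI:153259-153287, plus strand): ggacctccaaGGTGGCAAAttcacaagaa
RPN5 (chrIV:190776-190804, plus strand): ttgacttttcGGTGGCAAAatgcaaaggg
PRE8 (chrXIII:86841-86869, minus strand): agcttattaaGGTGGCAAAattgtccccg
PRE4 (chrVI:249959-249987, minus strand): tggtttagaaTTTGCCACCttaaatacgt

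PRE5, PUP1, RPN8, RPN10 and RPN13 had no exact copy. Each of these 5 held 1 site that differs from PACE at a single base, 101 to 172 bases upstream of the start codon, within the span of the exact copies. Such a site was found in 610 of the 5527 promoters without an exact copy (11.0%). The differences are G1A in PRE5, PUP1 and RPN8 and A7G in RPN10 and RPN13, counted from 1 at the 5′ end of the motif. They are shown because they split the 5 genes into 2 forms.
PRE5 (chrXIII:901552-901580, plus strand): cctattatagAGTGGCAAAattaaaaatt
PUP1 (chrXV:631891-631919, minus strand): aacccggccgAGTGGCAAAataccaaaaa
RPN8 (chrXV:817085-817113, minus strand): gggatacctcAGTGGCAAAtcgttactca
RPN10 (chrVIII:498968-498996, plus strand): caggcgggttTTCGCCACCggaatttaca
RPN13 (chrXII:965656-965684, minus strand): ttattcgcgaGGTGGCGAAagctttgcta

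RPN4 had no PACE and no site 1 base away from it. Its promoter instead held motifs of 3 kinds of stress and drug-response factors. The Pdr1/Pdr3 motif (TCCGCGGA or TCCGTGGA) was found there 2 times, 442 and 399 bases upstream, against 1.65% of all promoters and 0 of the 32 subunit genes. The Yap1 motif (TTACTAA or TTAGTAA) was present 374 bases upstream, as in 12.1% of all promoters and 5 subunit genes. The Hsf1 motif occurred 348 and 21 bases upstream, against 1.53% of all promoters and 0 subunit genes. No pair of matches overlapped. The stretch that holds 4 of these 5 matches is shown, with the matches in capitals in the order Pdr1/Pdr3, Pdr1/Pdr3, Yap1, Hsf1. A match describes letters only and does not show that a factor binds.
RPN4 (chrIV:417039-417168, minus strand): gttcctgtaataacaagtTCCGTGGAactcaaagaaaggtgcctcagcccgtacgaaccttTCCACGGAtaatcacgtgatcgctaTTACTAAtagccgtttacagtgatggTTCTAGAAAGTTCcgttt

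**Figure D1:**
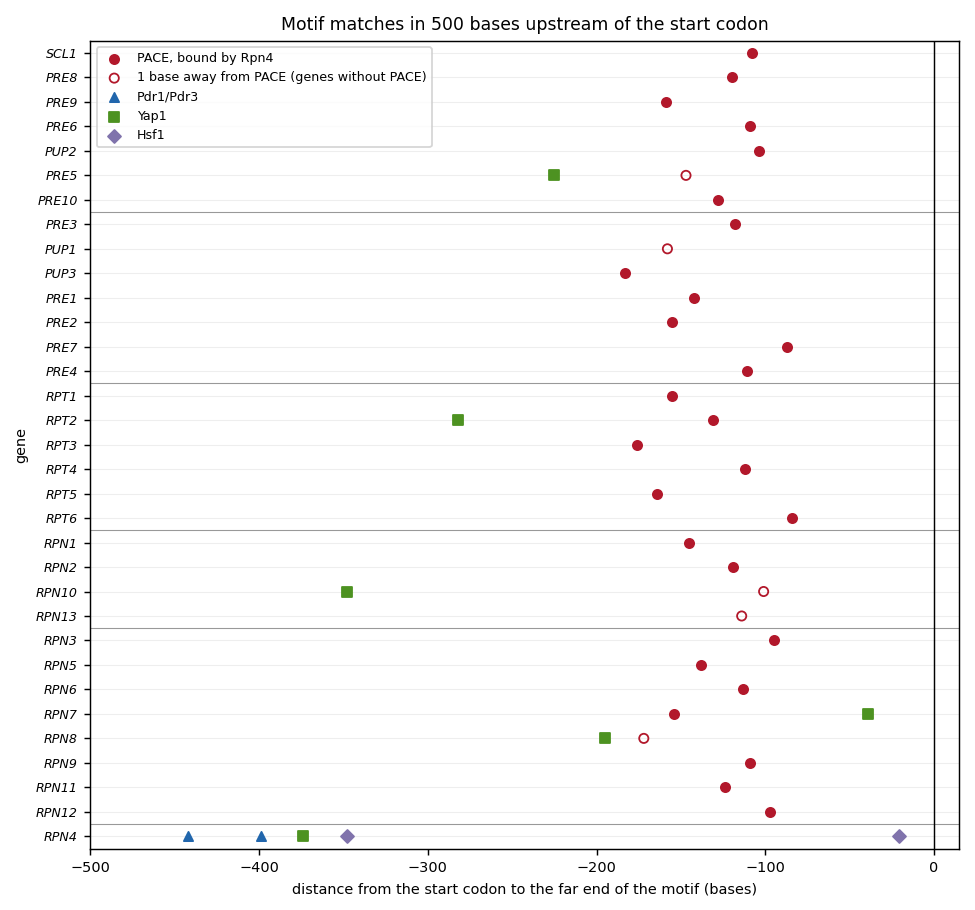
Motif matches upstream of the 33 genes. Each row is a gene and the x axis is the distance in bases from the start codon to the far end of the match. Filled circles mark PACE, open circles the sites 1 base away from it in genes without an exact copy, triangles Pdr1/Pdr3, squares Yap1 and diamonds Hsf1. PACE lies 84 to 183 bases upstream in 27 genes, and RPN4 holds the Pdr1/Pdr3 and Hsf1 matches.

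In the wild type the subunit genes were expressed at similar levels per length. Scaled CPM per kb of coding sequence ran from 142 for RPN9 of the lid to 585 for PRE6 of the alpha ring, a 4.12-fold range with a median of 266. The span from the 10th to the 90th percentile of the 32 subunit genes was 2.47-fold (171 to 422), against 31.5-fold (10.3 to 324) for all 5625 genes with a coding length, whose median was 55.3. Medians per kb were 371 for the alpha ring, 381 for the beta ring, 252 for the base ATPases, 190 for the other base subunits and 190 for the lid. RPN10, a ubiquitin receptor, stood above the other 3 non-ATPase base genes at 355 ± 5.84 scaled CPM per kb (SD, n = 3). RPN4 was lower per kb than every subunit gene at 113 ± 6.65. Neighbours in this order were seldom separate, since the libraries overlapped in 24 of 31 neighbouring pairs of subunit genes.

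**Figure D2:**
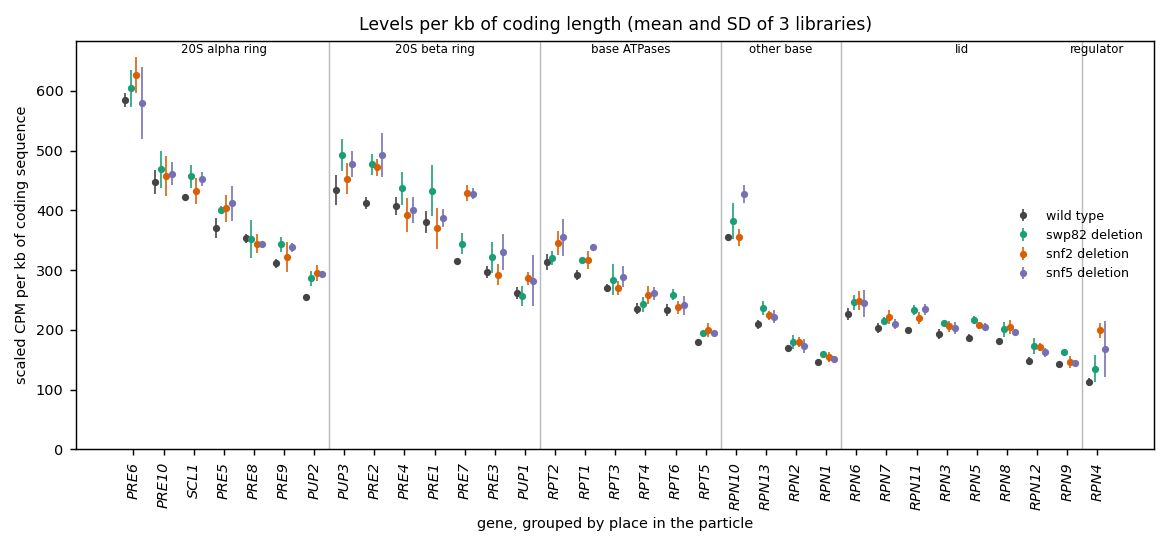
Levels of the 33 genes per kb of coding length in 4 strains. Points are means of 3 libraries in scaled CPM per kb, bars are SDs, and genes are grouped by place in the particle and ordered within a group by the wild type. Core genes run from 255 to 585 in the wild type, lid genes from 142 to 227.

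The order of genes by level per kb was similar in the 4 strains. PRE6 ranked 1 in each. PRE7 moved from rank 11 in the wild type and the swp82 deletion to rank 6 in the snf2 and snf5 deletions, and RPN4 moved from 33 in the wild type and the swp82 deletion to 29 in the snf2 and 30 in the snf5 deletion.

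Which proteasome genes differed between each deletion and the wild type was tested with limma on log2(scaled CPM + 1), fitted over 5820 genes and 12 libraries. A gene was called at a Benjamini-Hochberg adjusted p under 0.05. Against the wild type, 7 of the 33 genes rose and 0 fell in the snf5 deletion, where 29.3% of all genes tested were called and 14.8% were called higher. In the snf2 deletion 7 rose and 0 fell, against 27.7% of all genes called and 13.6% called higher. In the swp82 deletion 2 rose and 0 fell, against 3.49% called and 1.41% called higher. The 3 comparisons share the wild-type libraries. The members called were 21.2% of the 33 in the snf5 and in the snf2 comparison, below the share of all genes called and above the share called higher. In the swp82 comparison they were 6.06%.

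The differences were small. The median log2 difference of the 33 genes from the wild type was 0.104 in the snf5 deletion, 0.0979 in the snf2 deletion and 0.12 in the swp82 deletion, beside -0.0127, -0.00395 and 0.00226 for all genes. The 95% interval lay within 1.5-fold of the wild type for 32 of 33 genes in each comparison, RPN4 being the exception in all 3. This held for 73.8%, 73.6% and 80.1% of all genes in the snf5, snf2 and swp82 comparisons. Estimates above the wild type were found for 30, 28 and 31 of the 33 genes, in the same order. Of all genes, 47.9%, 49.5% and 50.6% had such an estimate. All 3 deletion libraries lay above all 3 wild-type libraries for 15 of the 33 genes in the snf5 deletion (background 21.3% of all genes), for 15 in the snf2 deletion (background 27.1%) and for 18 in the swp82 deletion (background 15%). No member lay entirely below the wild type in these 3 comparisons. Of all 5820 genes tested, 1175, 1506 and 936 did so in the snf5, snf2 and swp82 comparisons.

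These counts depend on how libraries are scaled. With scaling by total reads alone, the median of all genes moved to 0.075, 0.134 and -0.071 in the snf5, snf2 and swp82 comparisons, and 17, 24 and 0 of the 33 genes were called. All genes called higher were then 23.5% in the snf5 and 31.6% in the snf2 comparison, and 5.45% were called in either direction in the swp82 comparison. The median of the 33 was then 0.195, 0.24 and 0.0433, which is 0.12, 0.106 and 0.114 above that of all genes. Same-numbered swp82 deletion and wild-type libraries had deviations from the group means that correlated by 0.255 to 0.599. Libraries with different numbers were not compared, so a shared replicate effect was not tested. With the replicate as a block 5 of the 33 genes were called higher in the swp82 deletion, against 6.77% of all genes called higher.

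**Figure D3:**
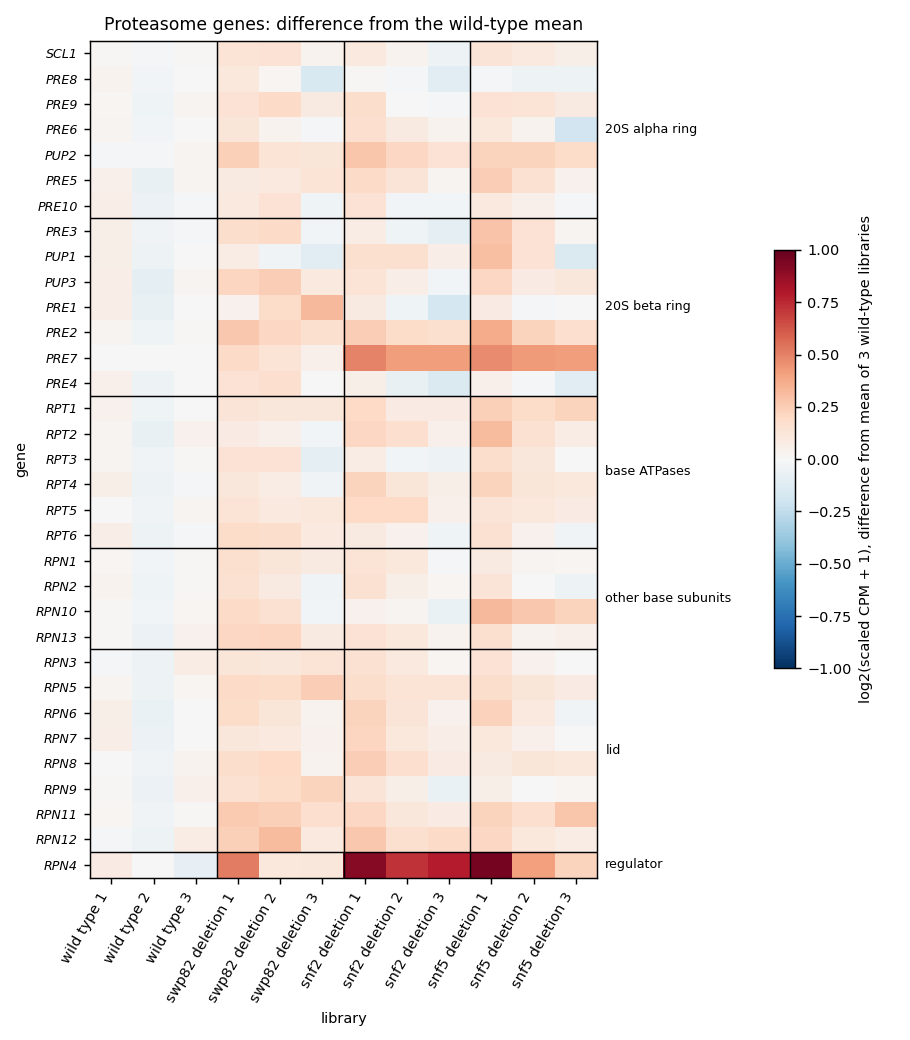
Level of each of the 33 genes in each of the 12 libraries, as the difference in log2(scaled CPM + 1) from the mean of the 3 wild-type libraries. Rows are genes grouped by place in the particle, columns are libraries. RPN4 and PRE7 have the strongest colours in the snf2 and snf5 deletions.

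**Figure D4:**
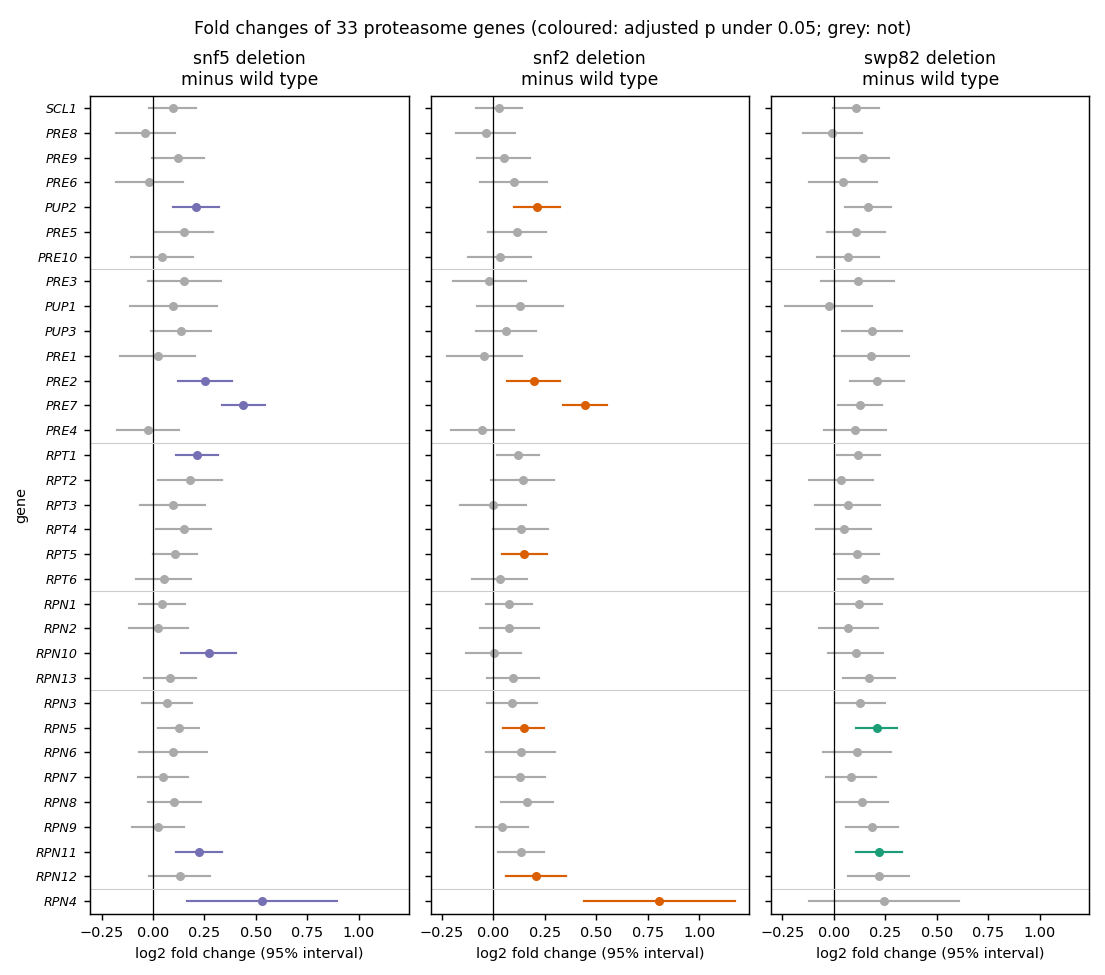
Log2 fold changes of the 33 genes in the 3 deletion strains against the wild type. Points are limma estimates and lines 95% intervals, coloured where the adjusted p was under 0.05 (7, 7 and 2 genes) and grey where not.

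The alpha ring forms the gate of the core. Of its 7 genes, 1 rose in the snf5 and in the snf2 deletion and 0 in the swp82 deletion. This is 14.3% of the ring in the snf5 and snf2 comparisons, beside 14.8% and 13.6% of all genes called higher. The gene called was PUP2, which encodes subunit alpha5. Its levels were 198, 197 and 203 scaled CPM in wild-type replicates 1 to 3. The snf5 deletion libraries gave 233, 233 and 226, the snf2 deletion libraries 242, 231 and 221, and the swp82 deletion libraries 235, 219 and 216. Every deletion library lay above every wild-type library. The log2 difference was 0.21 ± 0.05 (SE) in the snf5 deletion (adjusted p = 0.0102) and 0.21 ± 0.05 in the snf2 deletion (adjusted p = 0.00939). For the swp82 deletion it was 0.17 ± 0.05 with an adjusted p of 0.0935, and 0.0484 with the replicate block.

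The other 6 alpha genes had no call against the wild type. PRE8, which encodes alpha2, had 272, 260.0 and 265 scaled CPM in the wild type. The libraries of the snf5 deletion had 262, 257 and 256, so that the groups overlapped. The log2 difference was -0.04 (95% interval -0.18 to 0.10) in the snf5 deletion, -0.04 (-0.18 to 0.11) in the snf2 deletion and -0.01 (-0.15 to 0.14) in the swp82 deletion. PRE6, the most abundant transcript of the family per length, differed by -0.02 (-0.18 to 0.15), 0.10 (-0.07 to 0.26) and 0.05 (-0.12 to 0.21) in the same order. SCL1, PRE9, PRE5 and PRE10 had estimates between 0.03 and 0.15 in the 3 comparisons.

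Of the beta ring, 2 of 7 genes rose in the snf5 and in the snf2 deletion and 0 passed in the swp82 deletion. This is 28.6% of the ring in the snf5 and snf2 comparisons, beside 14.8% and 13.6% of all genes called higher. PRE7, which encodes the non-catalytic subunit beta6, had the largest estimate of the 32 subunit genes in both. Its levels were 229, 229.5 and 228 scaled CPM in the wild type. They were 318, 307 and 307 in the snf5 deletion, 323, 306 and 306 in the snf2 deletion and 262, 251 and 237 in the swp82 deletion. Replicates of the wild type thus differed by less than 2 scaled CPM, and the snf5 and snf2 deletion libraries lay far above them and above the swp82 deletion libraries. The log2 difference from the wild type was 0.44 ± 0.05 (SE, adjusted p = 5.88e-05) in the snf5 deletion, or 35.8% in means. In the snf2 deletion it was 0.44 ± 0.05 (adjusted p = 5.83e-05), or 36.2%. The snf5 and snf2 deletions differed in PRE7 by a ratio of means of 0.997 (95% interval of the fitted fold change 0.926 to 1.07). PRE7 in the swp82 deletion was 9.23% above the wild type without a call (adjusted p = 0.148), although all 3 libraries lay higher.

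PRE2 encodes beta5, the subunit with chymotrypsin-like activity. Its levels were 363, 346 and 359 scaled CPM in the wild type. They were 460.1, 415 and 399 in the snf5 deletion, 421, 403 and 398 in the snf2 deletion and 428, 411 and 397 in the swp82 deletion. Every deletion library lay above the wild type. The log2 difference in the snf5 deletion was 0.25 ± 0.06 (SE) with an adjusted p of 0.00821, and that in the snf2 deletion 0.19 ± 0.06 with an adjusted p of 0.03. For swp82 it was 0.21 ± 0.06 with an adjusted p of 0.073, and 0.0219 with the replicate block.

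The catalytic subunits beta1 (PRE3) and beta2 (PUP1) had no call. PRE3 differed from the wild type by 0.15 (95% interval -0.03 to 0.33) in the snf5, -0.02 (-0.20 to 0.16) in the snf2 and 0.12 (-0.06 to 0.29) in the swp82 deletion. PUP1 differed by 0.10 (-0.11 to 0.31), 0.13 (-0.08 to 0.34) and -0.02 (-0.24 to 0.19) in that order, and its snf5 deletion libraries spread from 186 to 253 scaled CPM. PRE4, PRE1 and PUP3 had no call against the wild type either. PRE1 (beta4) had its highest value of all, 284 scaled CPM, in swp82 deletion replicate 3, where most members were low for their group.

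The 6 base ATPases form the ring that unfolds substrates. Of these, RPT1 rose in the snf5 deletion and RPT5 in the snf2 deletion, and none passed in the swp82 deletion. Each call is 16.7% of these genes, beside 14.8% (snf5) and 13.6% (snf2) of all genes called higher. RPT1 levels were 421, 397 and 409.7 scaled CPM in the wild type. They were 482, 466 and 477 in the snf5 deletion, with no overlap. Its log2 difference was 0.21 ± 0.05 (SE, adjusted p = 0.00559). In the snf2 deletion it was 0.12 ± 0.05 without a call (adjusted p = 0.0821), from libraries of 469, 433 and 432, and the snf5 and snf2 deletions did not differ by test in RPT1 (0.10, 95% interval -0.01 to 0.20, adjusted p = 0.213). RPT5 stood at 235, 229 and 239 scaled CPM in the wild type and at 269.8, 269 and 244 in the snf2 deletion. These groups are close, and the log2 difference was 0.15 ± 0.05 (adjusted p = 0.0425). RPT2, RPT3, RPT4 and RPT6 had no call, with log2 differences between 0.00 and 0.18.

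Of the other base subunits, RPN1 and RPN2 are scaffolds and RPN10 and RPN13 bind ubiquitin. RPN10 rose in the snf5 deletion, and none of the 4 genes had a call in the snf2 or swp82 comparison. That call is 25% of the 4 genes, beside 14.8% of all genes called higher. RPN10 levels were 288, 281 and 289 scaled CPM in the wild type. They were 358, 345 and 333 in the snf5 deletion, 295, 291 and 273 in the snf2 deletion and 327, 317 and 281 in the swp82 deletion. All snf5 deletion libraries lay above all the other 9. The log2 difference from the wild type was 0.27 ± 0.06 (SE, adjusted p = 0.00716) in the snf5 deletion and 0.00 (95% interval -0.13 to 0.14) in the snf2 deletion. The difference between these deletions was itself tested and called, at 0.27 ± 0.06 (adjusted p = 0.0184). That call was lost without snf2 deletion replicate 2, without snf2 deletion replicate 3 or without snf5 deletion replicate 2, with adjusted p up to 0.0776. It was also lost with scaling by total reads (adjusted p = 0.0563) and with the 6 libraries of the comparison alone (adjusted p = 0.0558). RPN10 holds the PACE form with A7G shown above, as does RPN13. RPN13 differed from the wild type by 0.08 (-0.04 to 0.21) in the snf5, 0.10 (-0.03 to 0.22) in the snf2 and 0.17 (0.04 to 0.30) in the swp82 deletion, without a call. RPN1 and RPN2 differed by 0.03 to 0.12.

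The lid removes ubiquitin from substrates. Of its 8 genes in the set, 1 rose in the snf5 deletion (RPN11) and 2 in the snf2 deletion (RPN5 and RPN12). In the swp82 deletion 2 rose (RPN5 and RPN11). These are 12.5%, 25% and 25% of the 8, beside 14.8%, 13.6% and 1.41% of all genes called higher. SEM1 was listed with the assembly and associated factors and not with the lid. RPN11 encodes the deubiquitinating enzyme of the particle. Its levels were 187, 180.0 and 186 scaled CPM in the wild type. They were 215, 207 and 224 in the snf5 deletion, 212, 199 and 195 in the snf2 deletion and 220.4, 217 and 207 in the swp82 deletion. Every deletion library lay above every wild-type library. The log2 difference was 0.22 ± 0.05 (SE) for snf5, with an adjusted p of 0.00694, and also 0.22 ± 0.05 for swp82, with an adjusted p of 0.0407. In the snf2 deletion it was 0.13 ± 0.05 without a call (adjusted p = 0.0713).

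RPN5, a structural lid subunit, stood at 255, 242 and 255 scaled CPM in the wild type, 286, 286 and 298 in the swp82 deletion, 283, 275 and 276 in the snf2 deletion and 283, 272 and 266 in the snf5 deletion. It too was above the wild type in each of the 9 deletion libraries. The log2 difference was 0.21 ± 0.05 (SE, adjusted p = 0.0327) in the swp82, 0.15 ± 0.05 (adjusted p = 0.0316) in the snf2 and 0.13 ± 0.05 (adjusted p = 0.0585) in the snf5 deletion. RPN12 stood at 120.3, 118 and 129 in the wild type and 147, 137 and 139.7 in the snf2 deletion, a log2 difference of 0.21 ± 0.07 (adjusted p = 0.04). RPN3, RPN6, RPN7, RPN8 and RPN9 had no call against the wild type.

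Calls near the threshold were lost when 1 library was left out. In the snf2 comparison, those of PRE2 and RPN5 were lost without any one of the 6 libraries. The call of RPT5 was lost without any one of them but snf2 deletion replicate 3, and that of RPN12 without any one but wild-type replicate 3. In the swp82 comparison both calls were lost without any one of the 6 libraries except swp82 deletion replicate 1. They were lost as well with scaling by total reads, with upper-quartile factors and with the 6 libraries of the comparison alone, with adjusted p from 0.0701 to 0.132. The calls of PUP2, PRE7 and, for snf5, PRE2, RPT1, RPN10 and RPN11 against the wild type remained with each library left out in turn.

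RPN4, the regulator, had the largest estimate of the 33 genes in all 3 comparisons with the wild type, in the swp82 deletion by way of 1 library. Its levels were 192, 181 and 170.4 scaled CPM in the wild type, 340.3, 299.5 and 312 in the snf2 deletion, 351, 240.4 and 211 in the snf5 deletion and 257, 195 and 195 in the swp82 deletion. Every deletion library lay above the wild type, and replicate 1 was far above the other two in the snf5 and swp82 deletions. In the snf2 deletion the log2 difference was 0.81 ± 0.17 (SE, adjusted p = 0.00409), and it remained called with each library left out. The ratio of means was 1.75 (95% interval of the fitted fold change 1.36 to 2.25). In the snf5 deletion the log2 difference was 0.53 ± 0.17 (adjusted p = 0.0333). The ratio of means was 1.48 (interval of the fitted fold change 1.12 to 1.86). Without snf5 deletion replicate 1 the log2 difference fell to 0.32 (adjusted p = 0.0725). The call was also lost without wild-type replicate 1, 2 or 3 or snf5 deletion replicate 2, with adjusted p from 0.0502 to 0.103. With the 6 libraries of the comparison alone the adjusted p was 0.0891. The call was kept in 8 of 14 alternatives. Its adjusted p was 0.0275 in edgeR, 0.00781 in DESeq2 and 0.00288 with the replicate block. The replicate 2 libraries of these strains had deviations from the group means that correlated by only 0.0521. For the swp82 deletion the difference was 0.24 (95% interval -0.12 to 0.61, adjusted p = 0.368). Without swp82 deletion replicate 1 it was 0.11 (adjusted p = 0.675), below the 0.22 of RPN5 and the 0.20 of RPN11 in the same fit.

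**Figure D5:**
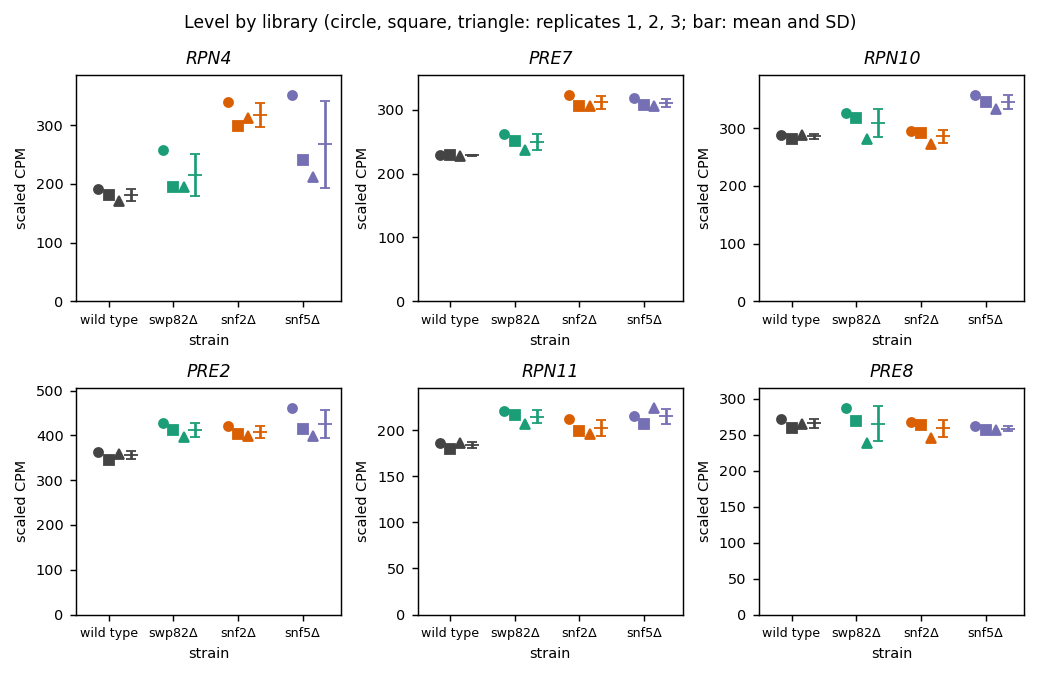
Scaled CPM of 6 genes in each library, by strain. Circles, squares and triangles are replicates 1, 2 and 3, and bars are the mean and SD of 3 libraries. RPN4 spreads from 211 to 351 in the snf5 deletion, PRE7 lies between 306 and 323 in the snf2 and snf5 deletions against 228 to 229.5 in the wild type, RPN10 lies between 333 and 358 in the snf5 deletion against 273 to 327 in the other strains, and PRE8 overlaps between strains.

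Between deletion strains few members differed. The snf5 and snf2 deletions differed in 1 of the 33 genes, the RPN10 described above, where 12.5% of all genes were called. RPN4 was lower in the snf5 than in the snf2 deletion by 0.28 on the log2 scale without a call (95% interval -0.64 to 0.09, adjusted p = 0.322). That difference was -0.49 and called without snf5 deletion replicate 1 (adjusted p = 0.0216). The other 32 intervals lay within 1.5-fold.

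The snf5 and swp82 deletions differed in 2 of the 33 genes, against 41.9% of all genes. PRE7 was higher in the snf5 deletion by 0.31 ± 0.05 (SE, adjusted p = 0.000553). RPN9, a structural lid subunit, was lower by 0.16 ± 0.06 (adjusted p = 0.0423), at 175, 168 and 169.97 scaled CPM in the snf5 deletion against 187, 191 and 196 in the swp82 deletion. The RPN9 call was lost without any one library except swp82 deletion replicate 1, and its sign turned with scaling by total reads. It was also lost with upper-quartile factors (adjusted p = 0.171) and with the 6 libraries alone (adjusted p = 0.101). With scaling by total reads 12 genes were called, all of them higher, against 39.2% of all genes called higher. Deviations of same-numbered libraries were correlated here too. The block called 4 genes (3 higher and 1 lower, background 50.5%), adding RPN10 (adjusted p = 0.0218) and RPN4 (adjusted p = 0.0372).

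The snf2 and swp82 deletions differed in 3 of the 33 genes, against 43.5% of all genes. PRE7 was higher in the snf2 deletion by 0.32 ± 0.05 (SE, adjusted p = 0.000418). RPN4 was higher by 0.56 ± 0.17 (adjusted p = 0.0184), a ratio of means of 1.47 (95% interval of the fitted fold change 1.15 to 1.90). This call was lost without swp82 deletion replicate 2 or 3 or snf2 deletion replicate 1. PRE1 was lower by 0.23 ± 0.08 (adjusted p = 0.0461), although its groups overlapped at 241, 221 and 200.5 scaled CPM in the snf2 and 234, 258 and 284 in the swp82 deletion. The PRE1 call was lost without replicate 2 or 3 of either strain. With scaling by total reads the PRE1 difference was -0.0077 (adjusted p = 0.94), and with upper-quartile factors it was -0.15 (adjusted p = 0.148). The call was lost in edgeR (adjusted p = 0.0506) and with the 6 libraries alone (adjusted p = 0.083) too. With scaling by total reads 21 members were called, all higher, against 50.5% of all genes called higher. The median of the 33 genes was -0.0183 (snf5 against swp82) and -0.0291 (snf2 against swp82), beside -0.00624 and 0.00359 for all genes. With scaling by total reads these medians became 0.149 and 0.19, beside 0.156 and 0.215.

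The members moved together from library to library within a strain. Replicate 1 was the highest of its group for 22 of 33 members in the wild type, 19 in the swp82 deletion, 33 in the snf2 deletion and 30 in the snf5 deletion. The lowest was wild-type replicate 2 for 31 members, and replicate 3 for 25, 29 and 26 members in the swp82, snf2 and snf5 deletions. These counts were not made over all genes, so whether the pattern is particular to the members was not tested. The median difference of the members from the wild-type mean ran from -0.0468 to 0.0273 over the wild-type libraries. It was 0.0876 to 0.151 over the swp82, 0.033 to 0.171 over the snf2 and 0.0526 to 0.175 over the snf5 deletion libraries. This range was wider than the members' median difference from the wild type in the snf2 and snf5 deletions and narrower than it in the swp82 deletion. Whether it comes from culture or library was not tested. As a share of all reads, the 33 genes held 0.862 to 0.926% in the wild type and 0.876 to 0.966% in the swp82 deletion. They held 1.02 to 1.12% in the snf2 and 0.961 to 1.11% in the snf5 deletion. These shares are not divided by the scaling factors. With scaling by total reads the median difference of all genes from the wild type was -0.071 (swp82), 0.134 (snf2) and 0.075 (snf5). The shares are therefore not particular to the members.

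Subunit genes with and without an exact PACE can be set side by side. In the snf5 deletion 5 of the 27 subunit genes with PACE and 1 of the 5 without it rose, with medians of 0.0973 and 0.104. In the snf2 deletion 6 of 27 and 0 of 5 rose, with medians of 0.0901 and 0.116. In the swp82 deletion 2 of 27 and 0 of 5 rose, with medians of 0.12 and 0.108. Called higher in the snf5, snf2 and swp82 comparisons were 18.5%, 22.2% and 7.41% of the 27 and 20%, 0% and 0% of the 5. The share of all genes called higher was 14.8%, 13.6% and 1.41%. The 71 other promoters with PACE belonged to genes of which 4 rose and 10 fell in the snf5 deletion, 11 rose and 6 fell in the snf2 deletion and 1 rose in the swp82 deletion. Called in either direction were 19.7%, 23.9% and 1.41% of the 71, each below the share of all genes called. Their medians were -0.0218, 0.024 and -0.0145. These are counts with no test of the difference.

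Other genes of the pathway were called in either direction against the wild type no more often than all genes, apart from the few regulators of RPN4. Of 17 genes for assembly and associated factors, 4 rose and 0 fell in the snf5 deletion and 4 rose and 0 fell in the snf2 deletion. These are 23.5% of the list in each, below the 29.3% and 27.7% of all genes called in either direction and above the 14.8% and 13.6% called higher. SPG5, needed for proteasome assembly in stationary phase, rose from 53.0, 51.9 and 45.7 scaled CPM to 72.9, 76.7 and 71.0 in the snf5 deletion and to 83.3, 75.1 and 78.3 in the snf2 deletion (log2 differences 0.54 ± 0.07 and 0.64 ± 0.07, adjusted p = 0.000115 and 3.4e-05). NAS6, a chaperone of base assembly, rose by 0.47 ± 0.08 and 0.49 ± 0.08 (adjusted p = 0.000823 and 0.000742). UMP1, the chaperone of core maturation, rose by 0.35 ± 0.05 and 0.25 ± 0.05 (adjusted p = 0.000655 and 0.00654). RPN14, another base chaperone, rose by 0.34 ± 0.05 in the snf5 deletion (adjusted p = 0.000758), and UBP6, a deubiquitinase of the particle, by 0.25 ± 0.06 in the snf2 deletion (adjusted p = 0.0113). Of the 17, 0 passed in the swp82 deletion, and the smallest p was that of POC4, a chaperone of the alpha ring, at -0.38 ± 0.10 (adjusted p = 0.0573, and 0.0221 with the replicate block).

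Of 18 genes for ubiquitin and substrate delivery, 2 rose in the snf5 deletion, 1 in the snf2 deletion and 0 in the swp82 deletion, and 0 fell in the 3 comparisons. The shares called, 11.1% (snf5) and 5.56% (snf2), lay below those of all genes in either direction and also below those of all genes called higher. UBC5, a ubiquitin-conjugating enzyme with the close copy UBC4 with which it may share reads, rose by 0.30 ± 0.10 in the snf5 deletion (adjusted p = 0.0353) and by 0.71 ± 0.10 in the snf2 deletion (adjusted p = 0.000284). DSK2, a shuttle for ubiquitinated proteins, rose by 0.24 ± 0.07 in the snf5 deletion (adjusted p = 0.026). The smallest p in the swp82 deletion was that of SSM4, a ubiquitin ligase, at 0.26 ± 0.07 (adjusted p = 0.063, and 0.0317 with the replicate block).

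Of 6 regulators of RPN4 expression or Rpn4 turnover, 2 fell in the snf5 deletion, and 1 rose and 1 fell in the snf2 deletion, 33.3% of the list in each. PDR3 encodes an activator of RPN4. It fell from 70.0, 65.2 and 64.8 scaled CPM in the wild type to 41.2, 39.2 and 38.3 in the snf5 deletion. It stood at 35.0, 32.9 and 42.5 in the snf2 deletion, with no overlap with the wild type in either. Its log2 difference was -0.74 ± 0.08 (adjusted p = 6.47e-05) and -0.85 ± 0.08 (adjusted p = 2.49e-05). RPN4 was called higher in both strains, in the snf5 deletion by a call that did not hold in all settings. Whether the changes of PDR3 and RPN4 are linked was not tested. PDR1, the partner of PDR3, rose by 0.19 ± 0.06 in the snf2 deletion (adjusted p = 0.0329). MUB1, a partner of the ligase that marks Rpn4 for degradation, fell by 0.20 in the snf5 deletion (SE 0.06, adjusted p = 0.0273). None of the 6 passed in the swp82 deletion, with YAP1 at the smallest p (0.11 ± 0.06, adjusted p = 0.282).

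Between deletion strains these lists differed as follows. The snf5 deletion had, against the snf2 deletion, 1 assembly gene higher and 3 lower, 2 delivery genes lower and no regulator called. This is 23.5% of the assembly and 11.1% of the delivery list, against 12.5% of all genes. UBP6 was lower by 0.33 (SE 0.06, adjusted p = 0.00829), RPN14 higher by 0.25 ± 0.05 (adjusted p = 0.0137), PBA1, a chaperone of the alpha ring, lower by 0.28 (SE 0.08, adjusted p = 0.0368) and ECM29, which holds core and cap together, lower by 0.56 (SE 0.16, adjusted p = 0.0482). UBC5 was lower by 0.41 (SE 0.10, adjusted p = 0.0199), and UBI4, a polyubiquitin gene whose repeats may share reads with other ubiquitin genes, by 0.95 (SE 0.25, adjusted p = 0.0316). PDR1 had the smallest p of the regulators at -0.14 ± 0.06 (adjusted p = 0.141). Against the swp82 deletion, 5 assembly genes were higher and 3 lower in the snf5 deletion and 3 were higher and 1 lower in the snf2 deletion. These shares of 47.1% and 23.5% stand beside 41.9% and 43.5% of all genes. SPG5 (0.63 ± 0.07 and 0.73 ± 0.07, adjusted p = 3.46e-05 and 1.13e-05) and NAS6 (0.53 ± 0.08 and 0.55 ± 0.08) had the smallest p. BLM10, an alternative cap of the core, was lower by 0.32 in the snf5 and 0.21 in the snf2 deletion (adjusted p = 0.00314 and 0.0262). RPN14 was higher by 0.30 ± 0.05 in the snf5 deletion (adjusted p = 0.00153), and TMA17, another base chaperone, by 0.69 ± 0.23 in the snf2 deletion (adjusted p = 0.035).

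Of the delivery genes, 4 were higher and 1 lower in the snf5 than in the swp82 deletion, and 2 higher and 1 lower in the snf2 than in the swp82 deletion. These are 27.8% and 16.7% of the list, below the share of all genes in both. UBC5 was higher by 0.54 ± 0.10 and 0.95 ± 0.10 and SSM4 lower by 0.33 and 0.29 in the 2 strains. DSK2 (0.27 ± 0.07) and HRD1, a ubiquitin ligase of the endoplasmic reticulum (0.28 ± 0.10), were higher in the snf5 deletion, and UBI4 in the snf2 deletion (0.94 ± 0.25), all with adjusted p between 0.0113 and 0.0403. Of the 6 regulators, 33.3% were called in each of these comparisons, also below all genes. PDR3 was lower than in the swp82 deletion by 0.87 in the snf5 (adjusted p = 1.81e-05) and 0.98 in the snf2 deletion (adjusted p = 7.11e-06). MUB1 was lower by 0.26 in the snf5 deletion (SE 0.06) and PDR1 higher by 0.17 ± 0.06 in the snf2 deletion.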

How the data were processed

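RNA of 12 yeast libraries, 3 for each of 4 strains, was measured. Per the submitters' processing notes, the tools were edgeR 3.8.6, Bowtie2 2.1.0 and TopHat2 2.0.10, on build sacCer3. The sources used here do not say how reads were counted, or on which strand. The deposited signal behaves as CPM divided by a TMM factor: 100% of the authors' values are whole multiples of 1 read (tolerance 0.05 of a read), and TMM factors of 0.907 to 1.08 were recovered to within 1.23e-10. None of the 33 genes is among the 506 of the authors' filtered list. All 12 libraries were kept apart, since chi-square per degree of freedom between replicates was 2.94 to 78.7. Their number limits precision, and floors cover counting error only.

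Log2(value + 1) was modelled by limma 3.58.1 with a variance trend in R 4.3.3, on strain alone and all 12 libraries. Genes needed a value of 1 or more in 3 or more libraries, which 5820 met and 115 did not. Tests were two-sided, with Benjamini-Hochberg adjustment over all genes, and fold changes are on the log2(value + 1) scale. Intervals are 95%. As the deposited unit is no raw count, count tests were alternatives. These were edgeR 4.0.16 and DESeq2 1.42.0 on the recovered reads, beside another pseudocount, no filter, other scalings, a replicate block, the 6 libraries of a comparison alone and leaving out each library. The procedure was also run on simulated data with the same spread set for all genes and no replicate effect. These settings differ from the libraries here, so that run does not assess calls near the threshold.

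Same-numbered libraries deviated together by a correlation of 0.255 to 0.599 between swp82 deletion and wild type and 0.116 to 0.66 between snf5 and swp82 deletion, above 0.1 in each of the 3 pairs. No label says what a number stands for, and no correlation was computed between libraries with different numbers. In the other 4 comparisons at least 1 pair was below 0.1.

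Motifs were searched in assembly R64 from RefSeq, in which no other gene overlaps any of the 33. The search for sites 1 base away from PACE was added after the exact copies were counted. The members and lists were chosen with earlier results of these data known. Named genes are RPN4, up to 6 called members of smallest p in each comparison, up to 4 called genes of each list or the one of smallest p; further members are given to account for all 33.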

Additional observations from a re-analysis of the deposited data

How the results depend on the processing

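Counts of called members moved with the settings. With scaling by total reads they were 17 (snf5 against wild type), 24 (snf2 against wild type), 0 (swp82 against wild type), 0 (snf5 against snf2), 12 (snf5 against swp82) and 21 (snf2 against swp82), in place of 7, 7, 2, 1, 2 and 3. With upper-quartile factors the swp82 count against the wild type was 0 (4.38% of all genes called), and with DESeq2 it was 6 (8.78%). With the replicate block it was 5 (13.5%), and the block gave 4 for snf5 against swp82 (50.5%) and 5 for snf2 against swp82 (51.8%). It gave 9 for snf5 and 10 for snf2 against the wild type (34.9% and 33.7% of all genes) and 1 for snf5 against snf2 (18%). In these comparisons and in snf2 against swp82, at least 1 correlation of same-numbered libraries was below 0.1. Whether the numbers mark a shared effect was not tested in any comparison. Fitted on the 6 libraries of each comparison alone, the counts against the wild type were 6 for snf5, 9 for snf2 and 0 for swp82. They were 0 for snf5 against snf2, 1 for snf5 against swp82 and 2 for snf2 against swp82. Leaving out each library in turn gave 6 to 11 called members for snf5, 3 to 5 for snf2 and 0 to 2 for swp82 against the wild type. Between deletions it gave 0 to 2 for snf5 against snf2, 1 to 5 for snf5 against swp82 and 1 to 5 for snf2 against swp82. The share of all genes called was not counted for these fits, so these counts have no background. Of 25 single-gene results, RPN9 between the snf5 and swp82 deletions turned, to 0.0061 with scaling by total reads (adjusted p = 0.938). Over their alternatives the single-gene values kept direction and side of the threshold in 279 cases, lost the call in 67 and gained it in 3. The cause was not tested, except that leaving out a library also leaves fewer samples.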
